A study of Mus musculus with 10 samples.

Results

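The genes that build the protein matrix of the hair shaft were followed through 10 mouse melanomas. The members are the genes whose symbol begins with Krtap together with Tchh, Tchhl1, Padi3 and S100a3, which makes 61 of the 47643 genes in the tables. They comprise 57 Krtap genes in 27 numbered subfamilies and the 4 others. Hoxc13, a transcription factor gene of the hair shaft, was left out of the members and read with the follicle genes. The tumours were 5 melanomas labelled Fes KO, with genotype Tyr::CreERT2/+, Fes-/-, and 5 labelled Fes WT, with genotype Tyr::CreERT2/+, Fes+/+. Both groups also carried an activated Braf allele, and the design gives them the same engineered alleles apart from Fes, the gene of a cytoplasmic tyrosine kinase. Cre fused to a tamoxifen-responsive receptor was driven by the promoter of Tyr, the tyrosinase gene of pigment cells, and was activated by 4OH-Tamoxifen at 5 mM applied to the skin of the back. The labels do not say whether each tumour is from its own animal, and the p-values below therefore speak only of variation among the sampled tumours.

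Hair is made by follicles that cycle through growth, regression and rest, and the hair shaft is laid down only in the growing phase. Cells leaving the matrix of a growing follicle first fill with hair keratins and then make keratin-associated proteins, small cysteine-rich or glycine- and tyrosine-rich proteins that pack around the keratin filaments. Trichohyalin, encoded by Tchh, plays a comparable part in the inner root sheath and the medulla, where peptidylarginine deiminases such as the product of Padi3 convert its arginines to citrulline and transglutaminases cross-link it. S100a3 encodes a cysteine-rich calcium-binding protein of the hair cuticle that is also a substrate of peptidylarginine deiminase 3, and Tchhl1 encodes a trichohyalin-like protein of the same S100 fused-type family as trichohyalin. In humans, changes in PADI3, TCHH or the transglutaminase gene TGM3 cause uncombable hair.

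Total counts ran from 13226783 to 16599120 per tumour. Fes itself was at 28.8 to 57.8 CPM (counts scaled to library size, edgeR's CPM) in the 5 Fes KO tumours and at 71.6 to 101 CPM in the 5 Fes WT tumours, without overlap. Sox10, a defining gene of the melanocyte lineage, was at 386 to 967 CPM over the 10 tumours, lowest in Fes KO replicate 2. The 7 melanocyte genes listed summed to 921 CPM in Fes KO replicate 2 and 514 CPM in Fes WT replicate 3, against 558 to 1034 CPM in the other 8 tumours.

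Hair matrix genes were abundant in 2 of the 10 tumours, Fes KO replicate 2 and Fes WT replicate 3, and nearly absent from the other 8. The summed level of the 61 members was 1.57, 11262, 4.51, 2.43 and 2.07 CPM in Fes KO replicates 1 to 5. It was 2.78, 2.24, 759.6, 0.611 and 3.18 CPM in Fes WT replicates 1 to 5. Each genotype thus held 1 tumour far above its other 4, and the remaining tumours of the genotypes overlapped. In bulk tumour RNA, fewer cells of a type and less RNA per cell cannot be told apart.

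**Figure D1:**
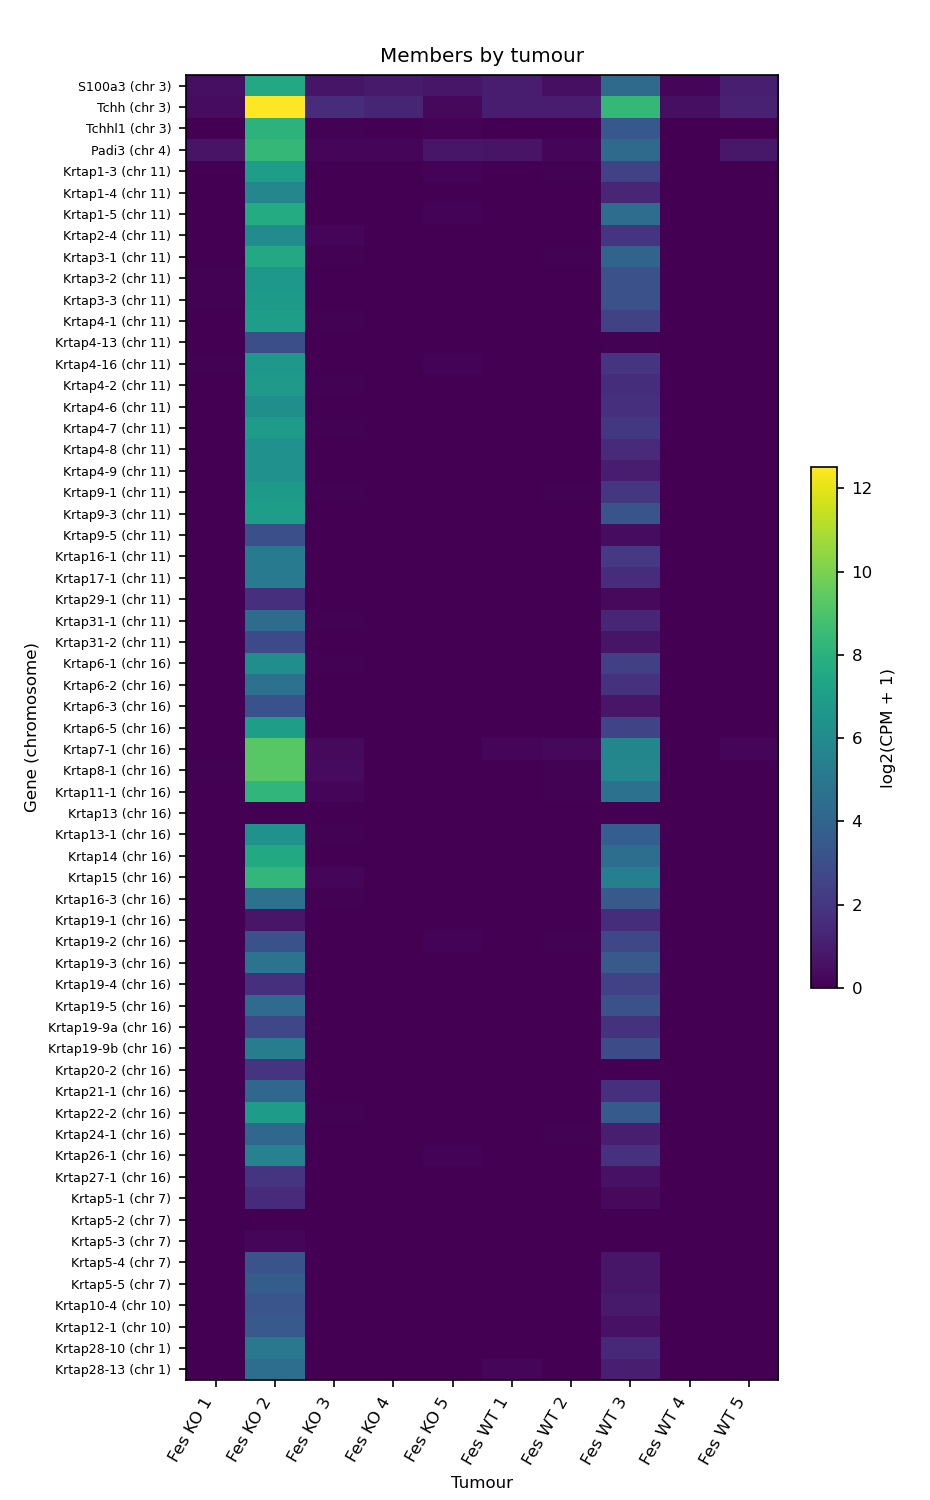
Level of each of the 61 members (vertical axis, with chromosome) in each of the 10 tumours (horizontal axis), as colour on the scale log2(CPM + 1). The columns of Fes KO replicate 2 and Fes WT replicate 3 are bright for nearly all members, and the other 8 columns are almost dark, with faint colour for Tchh, Padi3 and S100a3.

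The Krtap genes divided the tumours sharply. They collected 4, 75687, 27, 0 and 5 counts in Fes KO replicates 1 to 5, and 4, 10, 5996, 0 and 2 counts in Fes WT replicates 1 to 5. In Fes KO replicate 2 they made up 0.493% of all counts (95% Wilson interval 0.490% to 0.497%), and in Fes WT replicate 3 they made up 0.0395% (0.0385% to 0.0405%). The next highest tumour was Fes KO replicate 3, whose 27 counts came from 15 Krtap genes. Counts of 0, found in Fes KO replicate 4 and Fes WT replicate 4, allow a summed level of up to 0.197 and 0.183 CPM at a limit of 3 counts. These intervals and limits cover counting error only.

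Of the 57 Krtap genes, 55 had a count, all of them in Fes KO replicate 2, and 53 also in Fes WT replicate 3. Krtap13 and Krtap5-2 had none in any tumour. In the other 8 tumours 31 of the 55 were at 0 throughout, and the highest count of any Krtap gene there was 5. Over all members, 57 of the 59 with a count (96.6%) were higher in both Fes KO replicate 2 and Fes WT replicate 3 than in each of the other 8 tumours. The same held for 2156 of all 28496 genes with a count (7.57%).

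Tchh (ENSMUSG00000052415, chr3:93442330-93449077, GRCm38) had the highest level of any member. It was at 0.315, 5828, 2.01, 1.45 and 0.214 CPM in Fes KO replicates 1 to 5, and at 0.968, 1.03, 322, 0.428 and 1.21 CPM in Fes WT replicates 1 to 5. Outside the high pair its count lay between 3 and 33 reads in every tumour, so trichohyalin transcripts were not absent there, unlike most Krtap genes.

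Tchhl1 (ENSMUSG00000027908, chr3:93468754-93471980), which lies beside Tchh, was at 0, 275, 0.0610, 0 and 0.0712 CPM in the Fes KO tumours. In the Fes WT tumours it was at 9.86 CPM in replicate 3 and had no count in the other 4. It was thus the member outside the Krtap family that came closest to being silent in the 8 low tumours.

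Padi3 (ENSMUSG00000025328, chr4:140785365-140810648) was at 0.566, 326, 0.183, 0.131 and 0.712 CPM in the Fes KO tumours and at 0.581, 0.128, 19.1, 0 and 0.758 CPM in the Fes WT tumours. S100a3 (ENSMUSG00000001021, chr3:90560578-90602702) was at 0.440, 188, 0.610, 0.855 and 0.712 CPM in the Fes KO tumours and at 0.968, 0.449, 19.3, 0.183 and 1.06 CPM in the Fes WT tumours. The deiminase and its cuticle substrate therefore showed the same 2 tumours as the structural proteins, above at most 0.758 CPM of Padi3 and 1.06 CPM of S100a3 in the other 8.

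Among the Krtap genes, the single members of subfamilies 7 and 8, which encode glycine- and tyrosine-rich proteins, stood highest. Krtap7-1 (ENSMUSG00000056706, chr16:89507703-89508323) was at 0, 616, 0.244, 0 and 0 CPM in the Fes KO tumours and at 0.129, 0.192, 51.7, 0 and 0.152 CPM in the Fes WT tumours. Krtap8-1 (ENSMUSG00000059632, chr16:89487379-89487952) was at 0.0629, 602, 0.305, 0 and 0 CPM in the Fes KO tumours and at 0, 0.0641, 54.1, 0 and 0 CPM in the Fes WT tumours. Per kilobase of annotated exon in Fes KO replicate 2, the level was 1049 CPM for Krtap8-1, 1001 CPM for Tchh and 991 CPM for Krtap7-1. The next were Krtap22-2 at 326, Krtap3-1 at 307, Krtap11-1 at 298 and Krtap15 at 297 CPM per kilobase. On this scale of level per length, trichohyalin stood between the 2 small glycine- and tyrosine-rich genes.

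Members of the high-sulfur and ultrahigh-sulfur groups followed the same tumours at lower levels. Krtap1-5 (ENSMUSG00000047253, chr11:99579976-99581016), of a high-sulfur subfamily, was at 204 CPM in Fes KO replicate 2 and 21.3 CPM in Fes WT replicate 3, and had a count in 1 other tumour, Fes KO replicate 5, at 0.0712 CPM. Krtap4-1 (ENSMUSG00000063251, chr11:99627224-99628238), of an ultrahigh-sulfur subfamily, was at 128 CPM and 4.48 CPM in that pair and at 0.0610 CPM in Fes KO replicate 3. Krtap19-5 (ENSMUSG00000051802, chr16:88895968-88896457), of a glycine- and tyrosine-rich subfamily and named after its value was seen, was at 19.8 CPM and 7.52 CPM and had no count elsewhere. High-sulfur, ultrahigh-sulfur and glycine- and tyrosine-rich genes were therefore all present in both tumours.

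The most abundant members of the other subfamilies had 0 to 4 counts in the other 8 tumours together. Krtap15 was at 313 CPM in Fes KO replicate 2 and 41.1 CPM in Fes WT replicate 3, Krtap11-1 at 301 and 25.6 CPM, Krtap14 at 190.0 and 21.99 CPM, and Krtap3-1 at 186 and 15.6 CPM. Krtap6-5 was at 129 and 4.93 CPM, Krtap9-3 at 127 and 8.43 CPM, and Krtap22-2 at 119 and 10.6 CPM. Lower levels were found for Krtap13-1 at 83.0 and 12.3 CPM, Krtap2-4 at 64.2 and 2.72 CPM, Krtap26-1 at 45.7 and 2.46 CPM, Krtap19-9b at 37.1 and 6.36 CPM and Krtap17-1 at 35.0 and 2.01 CPM. The leading members of the remaining subfamilies were at 2.27 to 33.3 CPM in Fes KO replicate 2.

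The comparison of Fes KO with Fes WT, which the study was designed for, gave no call among the members. With edgeR's quasi-likelihood test and Benjamini-Hochberg adjustment, 26 of the 14816 genes tested passed an adjusted p of 0.05 (0.175%), and 0 members did. Only 2 members, Tchh and S100a3, passed the filter on low counts, and 0 members had an unadjusted p under 0.05. The other 59 did not reach the filter, which asks for a minimum count in as many tumours as a group holds. Padi3 had counts in 9 of the 10 tumours, but only 2 of these counts exceeded 10. The mean of Tchh over the 5 Fes KO tumours was 1166 CPM with an SD of 2606, and over the 5 Fes WT tumours it was 65.2 CPM with an SD of 144, with a log2 fold change of 4.17 (SE 2.95) and an adjusted p of 0.672 in edgeR. For S100a3 the means were 38.2 CPM (SD 83.9) and 4.40 CPM (SD 8.36), with a log2 fold change of 3.12 (SE 1.95) and an adjusted p of 0.632 in edgeR. In each group the SD exceeded the mean.

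Single tumours set the sign of these values. Without Fes KO replicate 2 the log2 fold change of Tchh was -6.02 (adjusted p = 0.356, edgeR) and that of S100a3 was -2.75 (adjusted p = 0.443, edgeR). Without Fes WT replicate 3 that of Tchh was 10.35 (adjusted p = 0.400, edgeR). With both left out, the values were 0.15 for Tchh and -0.014 for S100a3. Tested with no filter on low counts, 59 members gave 0 calls in edgeR, against 18 of all 28496 genes (0.0632%). The lowest adjusted p of a member was 0.587. Of the 59 members, 3 (5.08%) had an unadjusted p under 0.05, against 2168 of all 28496 genes (7.61%). DESeq2 gave no adjusted p for either of the 2 members.

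The 2 tumours that hold these transcripts were then set side by side, member by member. This compares 2 libraries and not the genotypes. The members summed to a ratio of Fes KO replicate 2 to Fes WT replicate 3 of 14.8 (95% exact interval 14.6 to 15.1, counting error only), and the Krtap genes to 11.9 (11.6 to 12.3). Of the 58 members with at least 10 counts in the pair, 40 were past 10-fold (69.0%), against 737 of 17273 genes with as many counts (4.27%). The median ratio was 13.2 for these members and 0.999 for these genes.

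**Figure D2:**
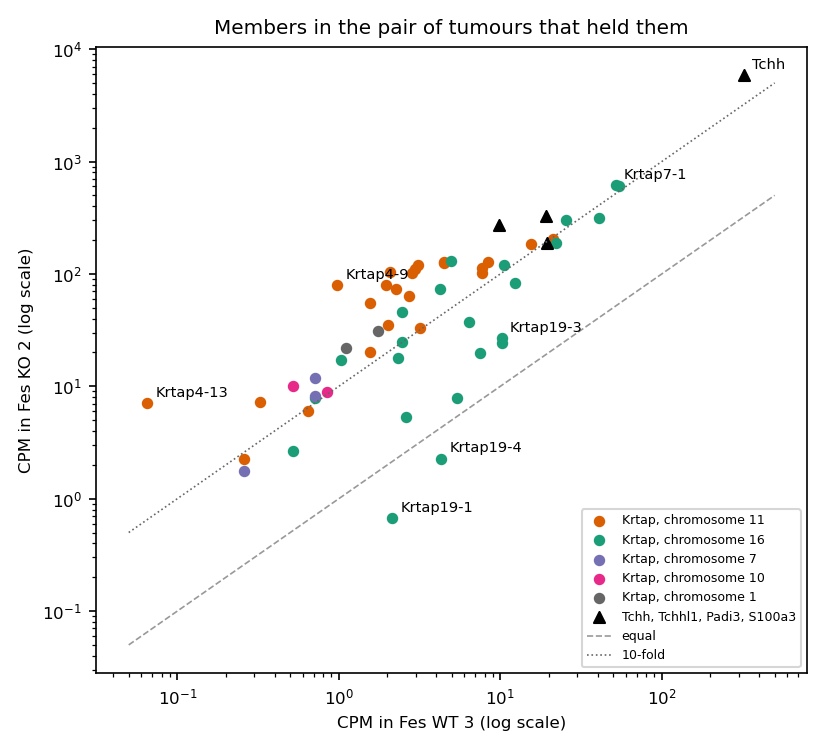
CPM of each member in Fes KO replicate 2 (vertical) against CPM in Fes WT replicate 3 (horizontal), both on log axes, for members with counts in both, coloured by chromosome, with triangles for Tchh, Tchhl1, Padi3 and S100a3 and lines for equal levels and for a 10-fold ratio. Tchh is highest at 5828 and 322 CPM, the labelled Krtap4 genes lie above the 10-fold line, and Krtap19-1 and Krtap19-4 lie below the line of equal levels.

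The members did not share 1 ratio. Tchhl1 stood at 27.9 (23.7 to 33.0), Tchh at 18.1 (17.6 to 18.6), Padi3 at 17.1 (15.2 to 19.3) and S100a3 at 9.74 (8.65 to 11.01). The interval of trichohyalin overlapped that of its deiminase and did not reach that of the cuticle protein. Of the 54 Krtap genes with at least 10 counts in the pair, the interval lay wholly above that of the summed Krtap genes for 16, wholly below for 13, and overlapped it for 25.

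Krtap4 and Krtap19 stood at opposite ends of the subfamilies. The 8 Krtap4 genes, of the ultrahigh-sulfur group, had a summed level of 692 CPM in Fes KO replicate 2 and 17.8 CPM in Fes WT replicate 3, a ratio of 39.0 (34.6 to 44.1). All 8 had intervals above that of the summed Krtap genes, from 28.7 for Krtap4-1 to 81.3 (49.1 to 146) for Krtap4-9 and 109 (19.1 to 4333) for Krtap4-13, which had 1 count in Fes WT replicate 3. Both upper values were named after they were seen. The 7 Krtap19 genes, of the glycine- and tyrosine-rich group, had a summed level of 99.6 CPM and 38.5 CPM, a ratio of 2.59 (2.36 to 2.85). All 7 had intervals below that of the summed Krtap genes, from 0.315 to 5.83.

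Krtap19-1, with a ratio of 0.315 (0.144 to 0.640), and Krtap19-4, with a ratio of 0.530 (0.345 to 0.805), were the only 2 Krtap genes higher in Fes WT replicate 3. Both were named after their values were seen. As shares of all Krtap counts, Krtap4 took 14.9% (95% Wilson interval 14.7% to 15.2%) in Fes KO replicate 2 and 4.57% (4.07% to 5.13%) in Fes WT replicate 3. Krtap19 took 2.15% (2.04% to 2.25%) and 9.89% (9.16% to 10.7%). Krtap7 took 13.3% in each, and Krtap8 took 13.0% and 13.9%.

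The other subfamilies with counts in both tumours lay between these. Among those on chromosome 11, the ratio was 23.6 for Krtap2, 20.9 for Krtap9, 17.4 for Krtap17, 14.0 for Krtap1, 13.0 for Krtap3, 11.96 for Krtap31 and 8.75 for Krtap29. Among those on chromosome 16, it was 19.03 for Krtap6, 18.5 for Krtap26, 16.4 for Krtap24, 11.9 for Krtap7, 11.8 for Krtap11, 11.2 for Krtap22, 11.1 for Krtap8, 8.64 for Krtap14, 7.67 for Krtap21, 7.60 for Krtap15, 6.74 for Krtap13 and 5.08 for Krtap27. Krtap16, with a gene in each cluster, was at 4.27. The small clusters hold Krtap5 at 13.0 on chromosome 7, Krtap12 at 19.5 and Krtap10 at 10.5 on chromosome 10, and Krtap28 at 18.4 on chromosome 1. Glycine- and tyrosine-rich subfamilies were therefore found on both sides of the summed ratio, with Krtap6 above it and Krtap19 below. Members of 1 subfamily differed as well, since Krtap1-5 was at 9.55 (8.52 to 10.7) and Krtap1-4, named after its value was seen, at 35.0 (23.4 to 55.0). Krtap20-2 had 46 counts in Fes KO replicate 2 and 0 in Fes WT replicate 3, and the lower limit of the exact interval of its ratio was 11.3.

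**Figure D3:**
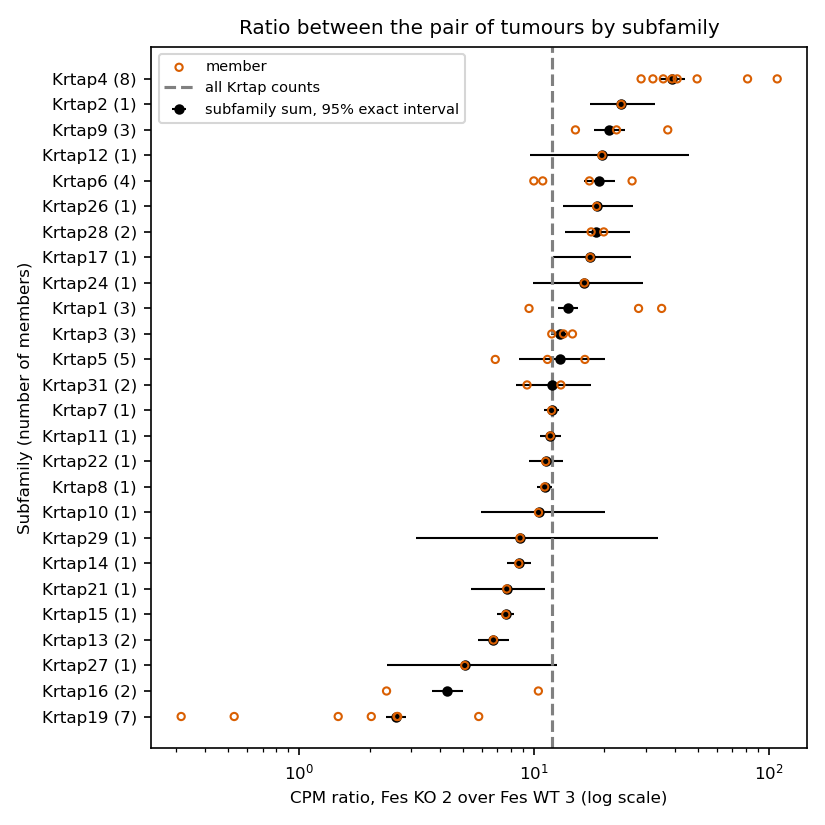
Ratio of CPM in Fes KO replicate 2 to CPM in Fes WT replicate 3 (log axis) by Krtap subfamily, with the number of members in brackets. Open circles are single members, filled circles the subfamily sum with its 95% exact interval for counting error, and the dashed line the ratio of all Krtap counts, 11.9, with Krtap4 at 39.0 at the top and Krtap19 at 2.59 at the bottom.

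Krtap genes lie in clusters, and the clusters differed in the same comparison. On chromosome 11, 23 genes span 444 kb (99550130 to 99993994, GRCm38) and summed to a ratio of 19.2. On chromosome 16, 25 genes span 960 kb (88610705 to 89571183) and summed to 9.37. Of the genes with at least 10 counts in the pair, 13 of 23 on chromosome 11 lay above the interval of the summed Krtap genes and 1 below, whereas on chromosome 16 it was 3 of 24 above and 12 below. Of the 13 above on chromosome 11, 8 are Krtap4 genes, and of the 12 below on chromosome 16, 7 are Krtap19 genes. Without these 2 subfamilies the summed ratios were 14.8 on chromosome 11, with 5 of 15 genes above and 1 below, and 10.4 on chromosome 16, with 3 of 17 above and 5 below. The small clusters stood at 18.4 on chromosome 1, 13.9 on chromosome 10 and 13.0 on chromosome 7. Krtap16 has a gene in each large cluster, and Krtap16-1 on chromosome 11 was at 10.5 (7.80 to 14.3) while Krtap16-3 on chromosome 16, named after its value was seen, was at 2.36 (1.96 to 2.86).

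Single-gene values within a subfamily carry a limit, because 46 of the 61 members share a stretch of at least 100 bases with another gene and 16 do so at 95% identity or more. Reads of near-identical copies such as Krtap4-1 and Krtap4-2 could have been divided between them or dropped, and such genes are uncertain. Krtap7-1, Krtap8-1, Krtap11-1, Krtap14, Tchh and Tchhl1 are among the 15 with no such match. Exons of Krtap15, Krtap24-1 and S100a3 overlap those of other annotated genes, and the strand setting of the counting is not given in the sources used here. Krtap19-9a is annotated as a processed pseudogene.

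The start sites of these genes were then read for a shared sequence feature, using the TATA box, a core promoter element found shortly before the start of many tissue-restricted genes. RefSeq windows (GRCm38.p6) from 250 bases before to 50 after the start were matched for 55 members, and 6 had none. The letters TATAAA, searched on both strands, occurred in 42 of 51 Krtap windows (82.4%) against 13.6% of all 32851 windows. On the strand of the gene, with a first base 50 to 1 bases before the start, they occurred in 34 of 51 (66.7%) against 2.73%. The median position of the first base in those 34 was -31, with a range from -49 to -27. The share was 18 of 21 (85.7%) on chromosome 11 and 12 of 23 (52.2%) on chromosome 16, and 0 of 7 windows of Tchh, Tchhl1, Padi3 and S100a3. Median GC content was 41.3% for Krtap windows and 52.7% for all windows. A match describes the letters only, and many Krtap genes are copies of each other and so share sequence.

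**Figure D4:**
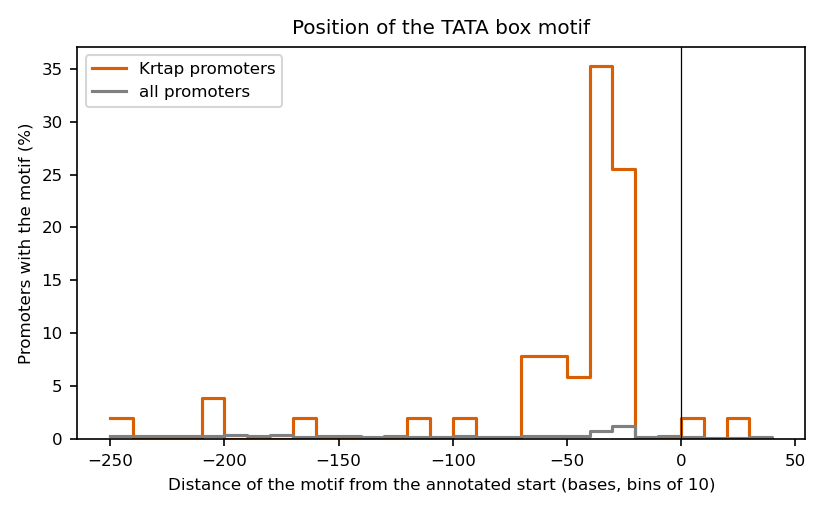
Percentage of promoter windows with TATAAA on the strand of the gene (vertical axis) by distance of its first base from the annotated start (horizontal axis, bins of 10 bases), for Krtap windows and for all windows. The Krtap line peaks shortly before the start, where the median of the 34 near matches is -31, and the line for all windows stays low.

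The 60 bases before the start are shown for the most abundant member of several subfamilies, 5′ to 3′ on the strand of the gene, with TATAAA in capitals. The first 10 hold the letters, and the last 4 do not. Krtap14 and Krtap15 hold the similar letters tatataag, which the search for exact TATAAA did not count.
Krtap1-5 (chr11:99581017-99581076, minus strand): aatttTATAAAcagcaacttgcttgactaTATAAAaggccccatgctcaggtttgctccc
Krtap3-1 (chr11:99566631-99566690, minus strand): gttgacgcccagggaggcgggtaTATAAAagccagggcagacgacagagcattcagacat
Krtap4-1 (chr11:99628240-99628299, minus strand): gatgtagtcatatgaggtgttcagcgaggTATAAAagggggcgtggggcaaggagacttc
Krtap9-3 (chr11:99598107-99598166, minus strand): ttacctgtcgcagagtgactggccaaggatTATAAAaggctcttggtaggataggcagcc
Krtap8-1 (chr16:89487953-89488012, minus strand): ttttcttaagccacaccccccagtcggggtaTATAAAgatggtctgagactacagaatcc
Krtap11-1 (chr16:89571184-89571243, minus strand): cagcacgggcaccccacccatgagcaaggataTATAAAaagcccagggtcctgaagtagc
Krtap22-2 (chr16:89010760-89010819, minus strand): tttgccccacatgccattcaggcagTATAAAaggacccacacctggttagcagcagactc
Krtap6-5 (chr16:89047900-89047959, minus strand): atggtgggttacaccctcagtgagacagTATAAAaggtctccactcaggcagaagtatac
Krtap19-9b (chr16:88932265-88932324, minus strand): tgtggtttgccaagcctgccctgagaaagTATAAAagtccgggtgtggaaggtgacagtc
Krtap5-5 (chr7:142229972-142230031, minus strand): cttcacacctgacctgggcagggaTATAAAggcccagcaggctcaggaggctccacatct
Krtap14 (chr16:88826146-88826205, minus strand): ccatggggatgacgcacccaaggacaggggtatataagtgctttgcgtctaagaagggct
Krtap15 (chr16:88828949-88829008, plus strand): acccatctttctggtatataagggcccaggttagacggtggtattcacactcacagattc
Tchh (chr3:93442270-93442329, plus strand): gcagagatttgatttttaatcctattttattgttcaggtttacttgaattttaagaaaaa
Tchhl1 (chr3:93468694-93468753, plus strand): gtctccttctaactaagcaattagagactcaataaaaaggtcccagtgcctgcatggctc
In the first 10 the capitals begin at -37 to -28, with a further copy upstream in Krtap1-5. These genes lie in 3 clusters, and their ratios between the 2 tumours differ. The 10 are a selection and do not show the full spread. Of the leading members not shown, Krtap16-1, Krtap13-1, Krtap10-4 and Krtap21-1 had their nearest copy further upstream, at -44, -52, -55 and -61. Krtap27-1 had none, and others not shown, such as Krtap2-4 and Krtap29-1, were at -27 to -32. Counted over whole subfamilies, TATAAA stood within 50 bases before the start in 6 of 8 Krtap4 windows and in 1 of 6 Krtap19 windows, that of Krtap19-9b. Krtap19-9b also had the highest ratio of the 7 Krtap19 genes, but Krtap16-3 held the letters there too, at a ratio of 2.36. Krtap4-8 and Krtap4-16 lacked them there at ratios of 40.8 and 35.6. Krtap16-3, Krtap4-8 and Krtap4-16 were named after their values were seen. A link between the letters and the ratio was not tested.

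Whether the other genes of a growing follicle appeared in the same tumours was read from lists. The 14 hair shaft keratins, the filaments that keratin-associated proteins surround, summed to 2351 CPM in Fes KO replicate 2 and 237 CPM in Fes WT replicate 3, against 0 to 0.793 CPM in the other 8 tumours. All 14 were higher in both tumours than in each of the other 8. Krt33a was at 435 and 43.3 CPM, Krt86 at 299.7 and 23.5 CPM, and Krt81 at 283 and 35.0 CPM. The summed ratio between the tumours was 9.93, against 11.9 for the Krtap genes. Krt85 was not analysed here.

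The inner root sheath, which moulds the shaft and fills with trichohyalin, gave the same picture. Its 9 listed genes summed to 10671 and 707 CPM, against 0.783 to 3.29 CPM in the other 8 tumours, and all 9 were higher in both tumours than in each of the others. The sheath keratin Krt71 was at 4278 and 304 CPM, Krt25 at 2174 and 199 CPM, and Krt27 at 2043 and 102 CPM. The summed ratio was 15.1, against 18.1 for Tchh.

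Regulators and matrix genes of the growing follicle summed to 537 and 41.8 CPM, against 0.774 to 9.40 CPM elsewhere, and 9 of 10 were higher in both tumours than in each of the other 8. Hoxc13, which controls hair keratin and Krtap genes in the mouse, was at 83.4 and 4.67 CPM. The homeobox gene Dlx3 was at 142 and 12.5 CPM, and Gprc5d, a receptor gene of differentiating hair cells, at 146 and 8.43 CPM. The exception was Lef1, an effector of Wnt signalling, which was at 7.96 CPM in Fes WT replicate 5 and 5.64 CPM in Fes WT replicate 3.

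The enzymes and relatives of trichohyalin were less uniform. Of 8 other deiminase and transglutaminase genes, 2 were higher in both tumours than in each of the other 8. These were Padi1, another deiminase gene, at 63.1 and 2.72 CPM, and the hair and skin transglutaminase Tgm3 at 34.5 and 4.35 CPM, both named after their values were seen. The widely expressed Tgm2 was at 80.0 CPM in Fes KO replicate 2, below the 113 to 304 CPM of the other 8, and at 238 CPM in Fes WT replicate 3, within that range. Padi2 was at 10.7 and 33.2 CPM, against 7.49 to 13.3 CPM elsewhere, and so was higher in Fes WT replicate 3. Tgm1, the epidermal transglutaminase gene, was at 59.9 and 5.45 CPM, against 0.671 to 10.9 CPM elsewhere. Of the 5 other fused-type S100 genes, Crnn alone was higher in both tumours than in each of the other 8, at 282 and 14.3 CPM. The others, Flg, Flg2, Hrnr and Rptn, are genes of the epidermal surface. They were at 11.1 to 20.4 CPM in Fes KO replicate 2 and had 1 count each in Fes WT replicate 3.

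Genes listed for the epidermis between follicles divided the pair. Their 12 listed genes summed to 3983 CPM in Fes KO replicate 2, 60.2 CPM in Fes WT replicate 3 and 143.6 CPM in Fes WT replicate 5, and 6 of the 12 were higher in both hair-rich tumours than in each of the others. Krt10, a keratin of differentiating epidermis, was at 285 and 8.82 CPM, against 4.84 to 8.58 CPM elsewhere. Its relatives Krt1 and Krt77, named after their values were seen, were at 191 and 251 CPM in Fes KO replicate 2 and had no count in Fes WT replicate 3. Krt5 was at 1570, 22.1 and 74.0 CPM and Krt14 at 1183, 6.55 and 59.4 CPM in Fes KO replicate 2, Fes WT replicate 3 and Fes WT replicate 5. Fes WT replicate 5 thus held basal keratin transcripts with 2 Krtap counts in all. The 66.2-fold ratio of the epidermal list between the high pair exceeded the 11.9-fold ratio of the Krtap genes. Krt5 and Krt14 gave most of that list's sum in Fes KO replicate 2. Whether these basal keratin transcripts came from epidermis or from follicles was not tested.

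**Figure D5:**
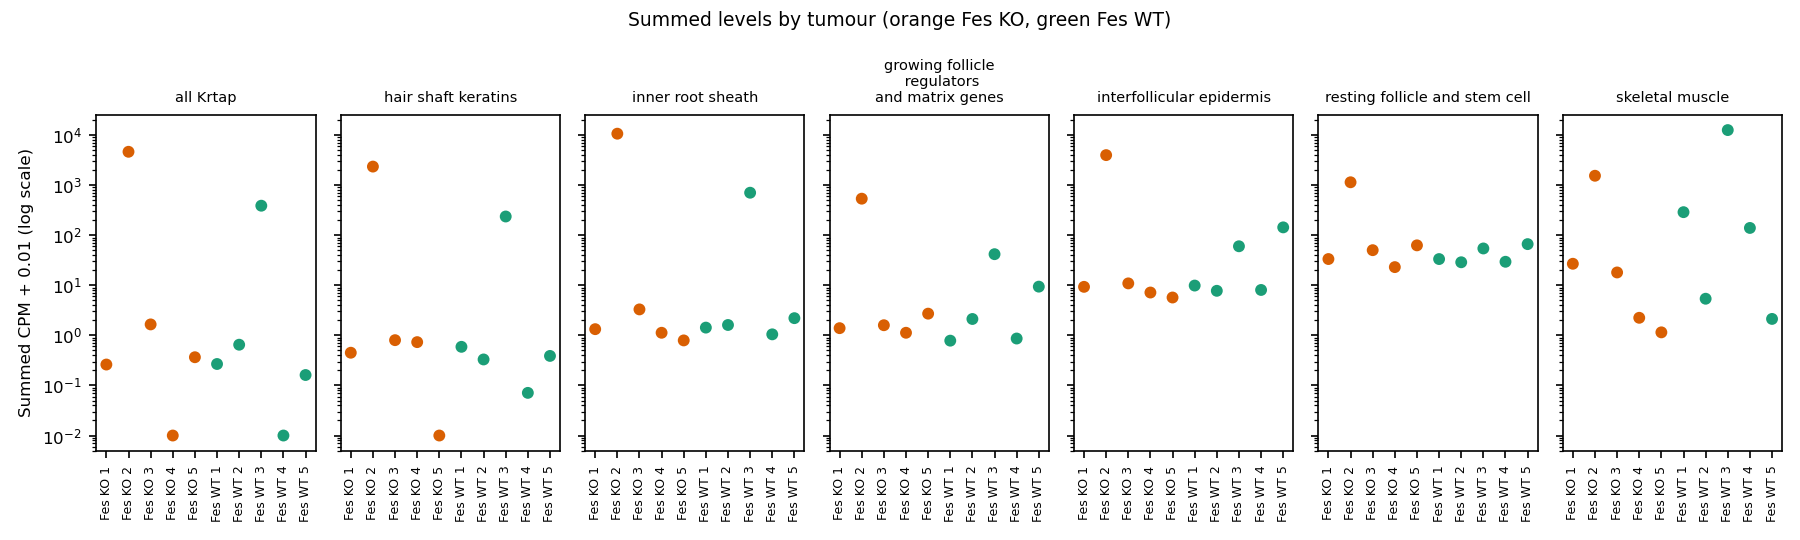
Summed CPM with 0.01 added (log axis) in each of the 10 tumours for the Krtap genes and 6 of the listed groups, 1 panel each, with Fes KO in orange and Fes WT in green. Hair shaft keratins and inner root sheath genes are high in the same 2 tumours as the Krtap genes. The sum of the epidermal list is higher in Fes WT replicate 5 than in Fes WT replicate 3, and muscle genes are highest in Fes WT replicate 3.

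Among the other lists, the resting follicle and stem cell list was raised as a sum in Fes KO replicate 2 only. Skeletal muscle genes were raised in both hair-rich tumours. The 7 genes of the resting follicle and its stem cells summed to 1142 and 54.4 CPM, against 23.1 to 66.5 CPM in the other tumours, and 1 of the 7 was higher in both tumours than in each of the other 8. That gene was Krt75, a keratin of the companion layer, at 415 and 22.2 CPM. Krt6a was at 345, 2.98 and 16.1 CPM in Fes KO replicate 2, Fes WT replicate 3 and Fes WT replicate 5. Sox9 was at 81.3 CPM in Fes KO replicate 2 and at its lowest, 14.7 CPM, in Fes WT replicate 3. Krt75 and Krt6a gave most of the list's sum in Fes KO replicate 2. Sox9 gave most of it in the other 8 tumours except Fes WT replicate 5. The sum therefore does not speak for each gene. The 6 skeletal muscle genes summed to 1542 CPM in Fes KO replicate 2 and 12600.5 CPM in Fes WT replicate 3, against 1.14 to 289 CPM elsewhere, and all 6 were higher in both tumours. The skeletal actin gene Acta1 was at 493 and 3885 CPM, the myosin gene Myh4 at 282.5 and 3277 CPM, and the calcium pump gene Atp2a1 at 305 and 2166 CPM. Their summed ratio of 0.122 ran opposite to the hair genes. The part of these tissues in the values above was not tested. Of the 21 listed genes that passed the filter on low counts, 0 were called between Fes KO and Fes WT by edgeR, with 6 (28.6%) at an unadjusted p under 0.05, against 1425 of all 14816 genes (9.62%). DESeq2 called 1 of them, Tyr, and 270 of all 14537 genes with an adjusted p (1.86%). It gave no adjusted p for several of the 21, such as Acta1, Krt10 and Mlana, so the 2 counts have unlike bases.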

How the data were processed

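Total RNA from 10 melanomas was sequenced by the authors, with 5 tumours per genotype grouped and numbered by sample title. The authors deposited raw read counts per gene and log2 values. From the values, the deposited log2 table is the count table after division by size factors and addition of 1. The submitters' processing notes name FastQC, STAR 2.51b, Subread 1.4.6 and the build GRCm38. How strand and multi-mapped reads were handled is not stated. An engineered allele shared by all mice is not reported here.

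Counts were tested with edgeR 4.0.16 in R 4.3.3 (TMM normalization, filterByExpr, 2-sided quasi-likelihood test, Benjamini-Hochberg adjustment over all 14816 genes tested, threshold 0.05), after the same steps were tested on simulated data. CPM values are counts over TMM-scaled library sizes. Alternatives used DESeq2 1.42.0, limma 3.58.1, other filters and size factors, the replicate number as a block, and each tumour left out. Library shares have Wilson intervals. Ratios between 2 tumours have exact conditional binomial intervals (scipy 1.17.1). Both cover counting error at 95% only. Positions, exon lengths and gene classes came from GENCODE M21, where all 61 members were found, and similarity from blastn 2.17.0+.

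The members, gene lists and tests were chosen with earlier results of these data known. The rule for named genes takes the 4 members outside the Krtap family, those passing the filter, the most abundant member of each subfamily (given by its subfamily's ratio where it is at a low level) and the 3 most abundant genes of each list. Others were named after their values were seen. No sample was left out of the main values.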

Additional observations from a re-analysis of the deposited data

Results flagged for a closer look

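In each genotype 1 tumour stood apart from its other 4 by Dixon's criterion for 5 values. Chance meets it in about 1 of 20 groups when values are normally distributed, which was not checked for these CPM values. Fes KO replicate 2 stood apart for 59 of 61 members taken singly and Fes WT replicate 3 for 57, and no other tumour did so for any member. A gene with counts in only 1 tumour of a group meets the criterion whatever its count. In the Fes KO group this held for at least the 31 Krtap genes at 0 in the other 8 tumours. In the Fes WT group it held for those of the 31 with counts in Fes WT replicate 3. Genes whose stray counts all fell in the other genotype met it in the same way. Examples are Krtap24-1 in the Fes KO group and Tchhl1 in the Fes WT group. The share over all genes was not computed, so the numbers of members that stood apart are a description only. In Fes KO replicate 2 the summed level of all members was 11262 CPM, and it was 759.6 CPM in Fes WT replicate 3.

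By chromosome, the Krtap genes of Fes KO replicate 2 summed to 52.6 CPM on chromosome 1, 21.8 CPM on chromosome 7, 18.96 CPM on chromosome 10, 1883 CPM on chromosome 11 and 2668 CPM on chromosome 16. In Fes WT replicate 3 the sums were 2.85, 1.69, 1.36, 98.2 and 284.8 CPM in that order. The clusters on chromosomes 7 and 10 had no count in any other tumour, nor that on chromosome 1 in any other Fes KO tumour. There the criterion was met whatever the level. Each of the 5 clusters stood apart in the same tumours.

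Trichohyalin and its partners did likewise. In Fes KO replicate 2, Tchh was at 5828 CPM, Padi3 at 326 CPM, Tchhl1 at 275 CPM and S100a3 at 188 CPM. In Fes WT replicate 3 they were at 322, 19.1, 9.86 and 19.3 CPM in that order.

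Of the listed groups in Fes KO replicate 2, inner root sheath genes at 10671 CPM, interfollicular epidermis at 3983 CPM, hair shaft keratins at 2351 CPM, skeletal muscle at 1542 CPM, resting follicle and stem cell genes at 1142 CPM, growing follicle genes at 537 CPM and other fused-type S100 genes at 341 CPM stood apart. In Fes WT replicate 3 it was skeletal muscle at 12600.5 CPM, inner root sheath genes at 707 CPM, hair shaft keratins at 237 CPM, growing follicle genes at 41.8 CPM and other fused-type S100 genes at 14.5 CPM. As sums, the epidermal list and the resting follicle and stem cell list stood apart in Fes KO replicate 2 alone.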

How the results depend on the processing

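The count of members called between the genotypes was 0 in all 17 alternatives that tested a member, while DESeq2 tested none. Over all genes, 26 calls became 270 with DESeq2, 115 with limma-voom, 4 with the replicate block, and 10 to 54 with 1 tumour left out. Listed genes went from 0 calls to 1 with DESeq2, which gave several of them no adjusted p. The log2 fold change of Tchh was 4.17, and turned to -0.33 with limma-voom, -0.49 with the replicate block and with 1 tumour left out ran from -6.02 without Fes KO replicate 2 to 10.35 without Fes WT replicate 3. That of S100a3 was 3.12, and ran from -2.75 to 5.87 without the same tumours, with -0.014 without both. Limma-voom gave 0.04, limma-trend 0.80 and the replicate block 0.15 for S100a3, and limma-trend gave 0.62 for Tchh. Adjusted p ran from 0.356 to 0.981 for Tchh and from 0.430 to 0.996 for S100a3. The mean summed Krtap level of Fes KO minus that of Fes WT was 851 CPM, and -77.4 to 1084 CPM with 1 tumour left out, negative only without Fes KO replicate 2, and the difference of group medians was 0.0979 CPM. The Krtap ratio of 11.9 between the high tumours was 12.5 with raw library sizes. Causes were not tested. Deviations of tumours with the same number correlated at 0.17, -0.38, -0.21, -0.10 and 0.14, so the replicate block joins tumours that share only a number. Depth was similar in all tumours, and members at 0 to 3 counts cannot be ranked.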

Other observations

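The melanocyte list, whose pigment genes pigment cells of the hair bulb also express, followed the Krtap genes in part. Of its 7 genes, 2 were higher in both Fes KO replicate 2 and Fes WT replicate 3 than in each of the other 8 tumours. Tyrp1, an enzyme gene of melanin synthesis, was at 70.1 and 4.15 CPM, against at most 1.97 CPM elsewhere. Pmel, a gene of the melanosome matrix, was at 19.5 and 5.58 CPM, against at most 4.08 CPM elsewhere. The other 5 were not. Dct was at 320 and 21.1 CPM, against 1.85 to 46.5 CPM elsewhere, Tyr at 50.3 and 2.01 CPM, against 0.452 to 6.59 CPM, and Mitf, the regulator of pigment cells, at 48.2 and 23.4 CPM, against 23.9 to 47.0 CPM. Mlana was at 26.8 and 1.62 CPM, against 0 to 2.20 CPM.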
